A study of Geissois pruinosa and Geissois racemosa with 6 samples.

Results

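The contigs described here had a similar level in all 3 plants of Geissois racemosa but differed at least 6-fold between a plant of Geissois pruinosa above that level and another below it. A contig is an assembled transcript sequence. Contigs were taken when G. racemosa plants 1, 2 and 3 each had at least 10 CPM (counts per 1000000 counts of the library) with a highest to lowest ratio of at most 1.5. In addition, G. pruinosa plants 1 and 2 had at least 10 counts each and differed at least 6-fold, with the level of 1 plant above and that of the other below all 3 G. racemosa plants. The mean over the 6 libraries had to be under 1000 CPM, a limit that kept out 0 contigs. Of 54969 contigs, 5709 met the G. racemosa criteria, and 29 of these, or 0.508%, met the whole rule. The contigs were thus chosen by the levels of pruinosa plants 1 and 2 and of the 3 G. racemosa plants, and these values are given as a description without a test.

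The libraries held polyadenylated RNA from leaves of 6 plants collected in the wild in New Caledonia, 1 library per plant. The 3 G. pruinosa plants, labelled as a nickel hyperaccumulator, were collected on 11 March at N'go (plant 1), Pont des Japonnais (plant 2) and Col de Plum (plant 3), all in Mont-Dore. The 3 G. racemosa plants, labelled as not accumulating nickel, were collected on 11 June at Mont Mou, Paita (plant 1), and on 12 June of the same year at Sarramea (plant 2) and Col Amieu, Sarramea (plant 3). The labels name serpentine maquis and rainforest on limestone as the habitats without assigning them to plants, and they give no plant ages, treatments or nickel contents. By the labelled positions, the sites of G. pruinosa plants 1 and 2 were 1.95 km apart. Plant 3 grew 10.6 km from plant 1 and 9.05 km from plant 2. The G. racemosa sites were between 8.23 and 81.4 km from each other. Pruinosa plants 1 and 2, the pair that the rule used, thus came from the closest sites of the 6 plants. All 3 G. pruinosa plants were collected on the same day.

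Nickel hyperaccumulators take the metal up from nickel-rich soils, such as those on serpentine, and store it in their leaves, mostly in vacuoles, at levels that are toxic to most plants. Metal transporters and small molecules that bind nickel are known to take part in this in several plant families. Leaf transcript levels of wild plants also vary with light, water, leaf age, time of day, herbivores and genotype. The contigs carry numbers and no gene names here, so none could be tied to such a process, and the leaf label could not be checked against marker genes. In bulk tissue, fewer cells of a type and less RNA per cell cannot be told apart.

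Library totals ran from 23661301 counts in racemosa plant 1 to 64908952 in racemosa plant 2. Counts of the 29 contigs ran from 26 to 4146 in pruinosa plant 1 and were at least 265 in every G. racemosa library. In the library of pruinosa plant 3, levels did not fall far below those of racemosa plant 1. Its CPM was never under 0.294 of the value in racemosa plant 1 at any of the 8311 contigs that had 500 or more counts there. All values of plant 3 below are subject to this limit, and its part in the results was not tested.

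The direction was nearly the same throughout. Of the 29 contigs, 28 were higher in pruinosa plant 2 and 1 was higher in pruinosa plant 1. In the whole table the direction was also uneven, though less so. Of the 40576 contigs with at least 10 counts in both plants, 2.32% (943 contigs) were at least 6-fold higher in plant 2 and 0.493% (200 contigs) at least 6-fold higher in plant 1. Among contigs steady in G. racemosa with at least 10 counts in both plants, 0.895% (51 of 5697) were at least 6-fold higher in plant 2 and 0.0351% (2 contigs) in plant 1, wherever they lay relative to G. racemosa. Besides the 29 contigs, these included 20 with both plants below the G. racemosa range, 1 with both above and 3 with 1 plant inside it. The split was more uneven past 4-fold than over all folds. Among steady contigs with plants 1 and 2 on opposite sides of G. racemosa, 216 were higher in plant 1 and 353 in plant 2 at any fold. At 4-fold or more these counts were 3 and 44, at 6-fold 1 and 28, at 8-fold 1 and 20, at 16-fold 1 and 12, and at 32-fold 0 and 6.

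The number of contigs depended on the scaling and on each G. racemosa plant. With TMM-scaled totals, 17 contigs met the rule (2 higher in plant 1, 15 in plant 2), of which 13 were among the 29. With DESeq2 size factors it was 15 (2 and 13), of which 11 were among the 29. These scalings lowered the log2 ratio of plant 2 to plant 1, whose median over the steady contigs was 0.15 with plain totals and -0.09 and -0.13 with the others. They also rescaled the G. racemosa libraries, with TMM factors of 1.02, 0.902 and 1.05 for plants 1, 2 and 3. This changed the G. racemosa ratios and ranges that the rule uses. How many contigs were lost by each criterion was not counted. Without racemosa plant 1, 2 or 3, the rule took 51, 64 and 56 contigs, because a range over 2 plants is easier to meet, and all 29 were among them each time.

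**Figure D1:**
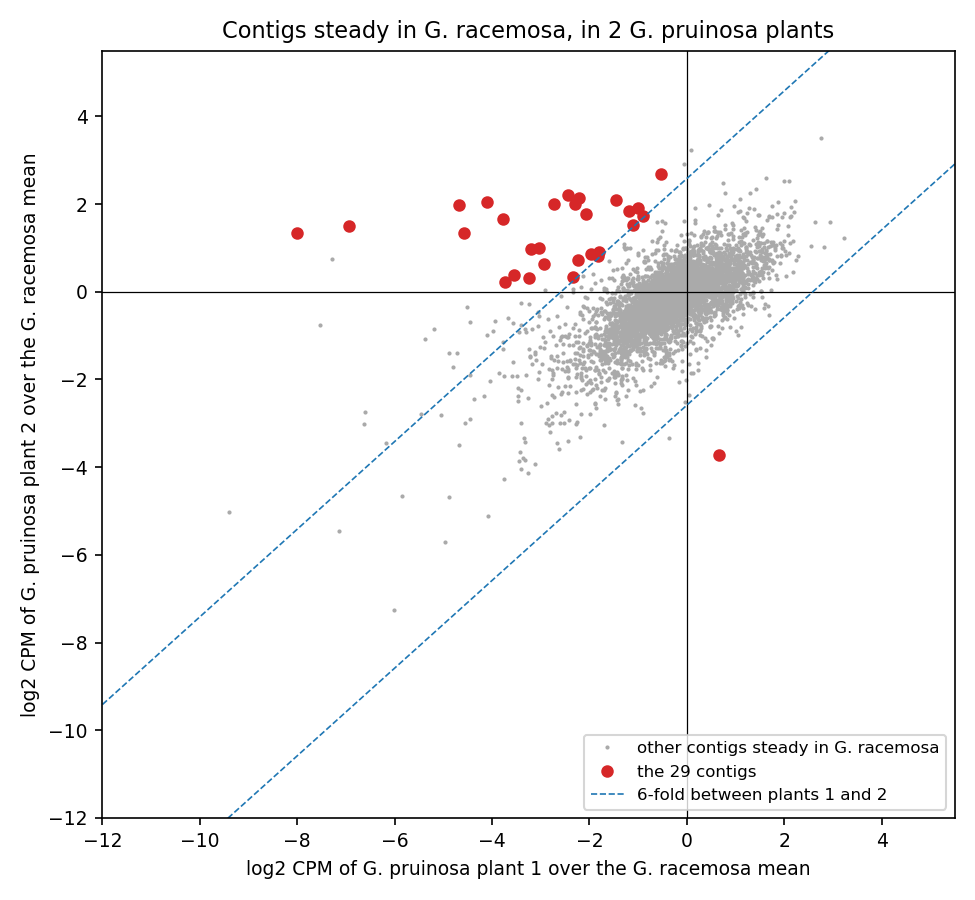
Log2 CPM of pruinosa plant 1 (horizontal) and plant 2 (vertical) over the G. racemosa mean, for contigs steady in G. racemosa. Red points are the 29 contigs, grey points the others, dashed lines mark a 6-fold difference between the plants, and 7 contigs with 0 counts in a plant are not drawn. Of the red points, 28 lie at the upper left, high in plant 2 and low in plant 1, and 1 lies at the lower right.

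In the 28 contigs higher in plant 2, the level in plant 1 was usually farther from G. racemosa than the level in plant 2. Plant 1 lay between 1.44-fold and 256-fold below the G. racemosa mean, with a median of 5.24-fold. Plant 2 lay between 1.16-fold and 6.46-fold above it, with a median of 2.84-fold. The distance was larger on the side of plant 1 in 22 contigs and on the side of plant 2 in 6. Plant 1 was 10-fold or more below G. racemosa in 8 contigs, whereas plant 2 was never that far above it. The rule asked for at least 10 CPM in each G. racemosa plant but only for 10 counts in pruinosa plants 1 and 2. Contigs low in G. racemosa and high in plant 2 could not enter, so this contrast can follow in part from the rule. The ratio of plant 2 to plant 1 had a median of 14.7 and ran from 6.16 to 652. It was 16-fold or more in 12 contigs, between 10-fold and 16-fold in 6, and under 10-fold in 10.

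The largest ratio was that of Gpru_v1_contig_81. It stood at 0.549 CPM (26 counts) in pruinosa plant 1, 358 CPM (19369 counts) in plant 2 and 45.1 CPM in plant 3. In racemosa plants 1, 2 and 3 it stood at 138, 128 and 155 CPM, or 140.5 ± 13.6 CPM (mean ± SD, n = 3 plants). Plant 2 was thus 652-fold above plant 1, with a 95% interval from 445 to 999 (exact binomial, counting error only), and plant 1 was 256-fold below the G. racemosa mean. Plant 3 lay below all G. racemosa plants, and the G. pruinosa mean of 134.5 ± 195 CPM (SD, n = 3 plants) was close to that of G. racemosa although no single G. pruinosa plant was near it.

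Gpru_v1_contig_490 had the same order of G. pruinosa plants around G. racemosa, with a higher CPM in each plant. Its values were 3.12 CPM in pruinosa plant 1, 1089 in plant 2 and 194.6 in plant 3, against 435, 404 and 314 CPM in racemosa plants 1, 2 and 3. Plant 2 was 349-fold above plant 1 (95% interval 297 to 413). Contigs 81 and 490 were the only members of the 29 in which plants 1 and 2 differed by more than 102-fold.

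In the next contigs by ratio, plant 1 stood near 1 CPM. Gpru_v1_contig_6342 had 0.654 CPM in pruinosa plant 1, 66.7 in plant 2 and 6.43 in plant 3, and 15.0, 16.3 and 19.2 CPM in racemosa plants 1, 2 and 3. Gpru_v1_contig_8311 had 1.14, 81.6 and 10.4 CPM in pruinosa plants 1, 2 and 3, and 17.5, 24.8 and 16.9 CPM in the G. racemosa plants. Gpru_v1_contig_6514 had 1.01, 61.3 and 15.5 CPM in G. pruinosa and 23.7, 19.97 and 28.998 CPM in G. racemosa. The ratios of plant 2 to plant 1 were 102 (95% interval 71.7 to 150.3), 71.6 (54.8 to 95.5) and 60.6 (45.6 to 82.3) in this order. In all 3 contigs plant 3 was below the G. racemosa range and 9.15 to 15.3 times the level of plant 1.

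Of the other contigs with a ratio of 16 or more, Gpru_v1_contig_3290 was among the steadiest in G. racemosa. It had 2.76, 57.0 and 5.04 CPM in pruinosa plants 1, 2 and 3, and 11.2, 14.1 and 13.3 CPM in the G. racemosa plants. In Gpru_v1_contig_578, whose level in plant 3 was among the lowest relative to G. racemosa, the G. pruinosa plants had 4.60, 91.6 and 9.07 CPM and the G. racemosa plants 18.6, 24.8 and 24.7 CPM. In both contigs plant 2 was over 4 times the G. racemosa mean (4.42-fold and 4.04-fold), and plants 1 and 3 were within 2-fold of each other (1.82-fold and 1.97-fold).

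The remaining 5 contigs of this class had ratios from 16.5 to 42.95. Contig 2459 had 4.54, 121 and 12.7 CPM in pruinosa plants 1, 2 and 3, against 25.8, 38.3 and 26.3 CPM in racemosa plants 1, 2 and 3. Contig 288 had 5.91, 147.8 and 13.4 CPM against 26.4, 37.2 and 32.5 CPM. In these 2 contigs plant 3 was 2.80 and 2.27 times the level of plant 1. The next contigs differed from them in plant 3, which was nearer to plant 2 on the log scale. Contig 5213 had 1.90, 81.6 and 18.8 CPM in G. pruinosa against 24.0, 21.9 and 31.7 CPM in G. racemosa. Contig 19188 had 1.94, 34.9 and 14.1 CPM against 18.9, 20.1 and 14.2 CPM. Contig 1020 had 2.22, 36.5 and 9.56 CPM against 17.3, 21.1 and 16.2 CPM. In all 12 contigs with a ratio of 16 or more, plant 3 was below the G. racemosa range and above plant 1.

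In 4 of the 6 contigs with a ratio between 10 and 16, plant 2 was only slightly above G. racemosa, so the difference lay mostly in plant 1. Gpru_v1_contig_20920, among the steadiest in G. racemosa, had 1.10, 17.1 and 12.2 CPM in pruinosa plants 1, 2 and 3 and 14.6, 13.7 and 15.6 CPM in racemosa plants 1, 2 and 3. Plant 1 was 13.4-fold below the G. racemosa mean and plant 2 was 1.16-fold above it. Contig 8941 had 1.10, 16.7 and 11.1 CPM against 15.5, 10.8 and 12.3 CPM. Contig 10713 had 1.62, 19.4 and 12.6 CPM against 11.2, 11.8 and 14.4 CPM. Contig 2823 had 1.71, 20.04 and 8.52 CPM against 15.7, 18.9 and 13.7 CPM. In the first 3 of these contigs, plant 3 was 7.73 to 11.2 times the level of plant 1 and within 1.54-fold of plant 2, so plant 1 stood apart from the other 5 plants. In the other contigs of this class plant 2 was over 3 times the G. racemosa mean (3.40-fold and 4.25-fold). Contig 4102 had 4.33, 61.4 and 15.2 CPM in G. pruinosa against 20.8, 18.7 and 14.6 CPM in G. racemosa. Contig 1440 had 7.24, 84.0 and 10.3 CPM against 22.5, 15.1 and 21.8 CPM, with plants 1 and 3 both below the G. racemosa range.

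The 10 contigs with a ratio under 10 included those with the highest CPM in G. racemosa apart from contigs 81 and 490. Lengths are not given in the files, so CPM values are not compared between contigs as transcript levels. Gpru_v1_contig_2268 had 85.7, 539 and 383 CPM in pruinosa plants 1, 2 and 3 and 315, 283 and 314 CPM in racemosa plants 1, 2 and 3. It had the smallest spread over the G. racemosa plants among the 29 contigs, with a highest to lowest ratio of 1.11. Plants 2 and 3 were both above the G. racemosa range, and plant 1 was 3.55-fold below the mean. Gpru_v1_contig_351 had 87.5, 540.3 and 259 CPM in G. pruinosa and 195, 175 and 197 CPM in G. racemosa, so that plants 2 and 3 again lay above the range and plant 1 below it. Gpru_v1_contig_12982, with 7.34, 45.2 and 16.9 CPM against 15.7, 12.0 and 13.2 CPM, had the same order.

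Contig 30 was the one farthest above G. racemosa in plant 2. It had 82.5 CPM in pruinosa plant 1, 766 in plant 2 and 55.9 in plant 3, and 99.8, 111 and 144.6 CPM in racemosa plants 1, 2 and 3. Plant 2 was 6.46-fold above the G. racemosa mean, the largest such value of the 29 contigs, while plant 1 was 1.44-fold below it, the smallest. Contig 7895 was similar, with 6.58, 49.2 and 7.64 CPM in G. pruinosa against 16.5, 11.4 and 11.5 CPM in G. racemosa. In both contigs plant 2 stood apart from the other 5 plants. The other contigs whose level in plant 2 was farther from G. racemosa than that in plant 1 were 351, 1440, 2334 and 12982.

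In the rest of this class plant 3 lay inside or just above the G. racemosa range. Gpru_v1_contig_2434 had 18.7, 133.5 and 70.2 CPM in pruinosa plants 1, 2 and 3 against 60.6, 87.7 and 70.6 CPM in racemosa plants 1, 2 and 3. Contig 2334 had 24.4, 198.6 and 58.9 CPM against 59.0, 44.0 and 63.0 CPM. Contig 3248 had 11.5, 73.5 and 67.4 CPM against 69.0, 46.5 and 59.5 CPM, and plant 1 was thus the only plant under 46 CPM. Contig 16481 had 4.24, 27.7 and 12.3 CPM against 14.9, 17.4 and 11.9 CPM. Contig 2267 had 7.22, 56.5 and 40.7 CPM against 39.9, 32.3 and 29.7 CPM, with plant 3 just above the range.

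Gpru_v1_contig_6137 was the only one of the 29 with the opposite order. It had 62.0 CPM in pruinosa plant 1 (2939 counts), 2.98 CPM in plant 2 (161 counts) and 33.6 CPM in plant 3, and 42.9, 43.7 and 31.6 CPM in racemosa plants 1, 2 and 3. Plant 1 was 20.8-fold above plant 2, with a 95% interval from 17.8 to 24.6 (exact binomial, counting error only). Plant 3 lay inside the G. racemosa range, so plant 2 stood apart below the other 5 plants.

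**Figure D2:**
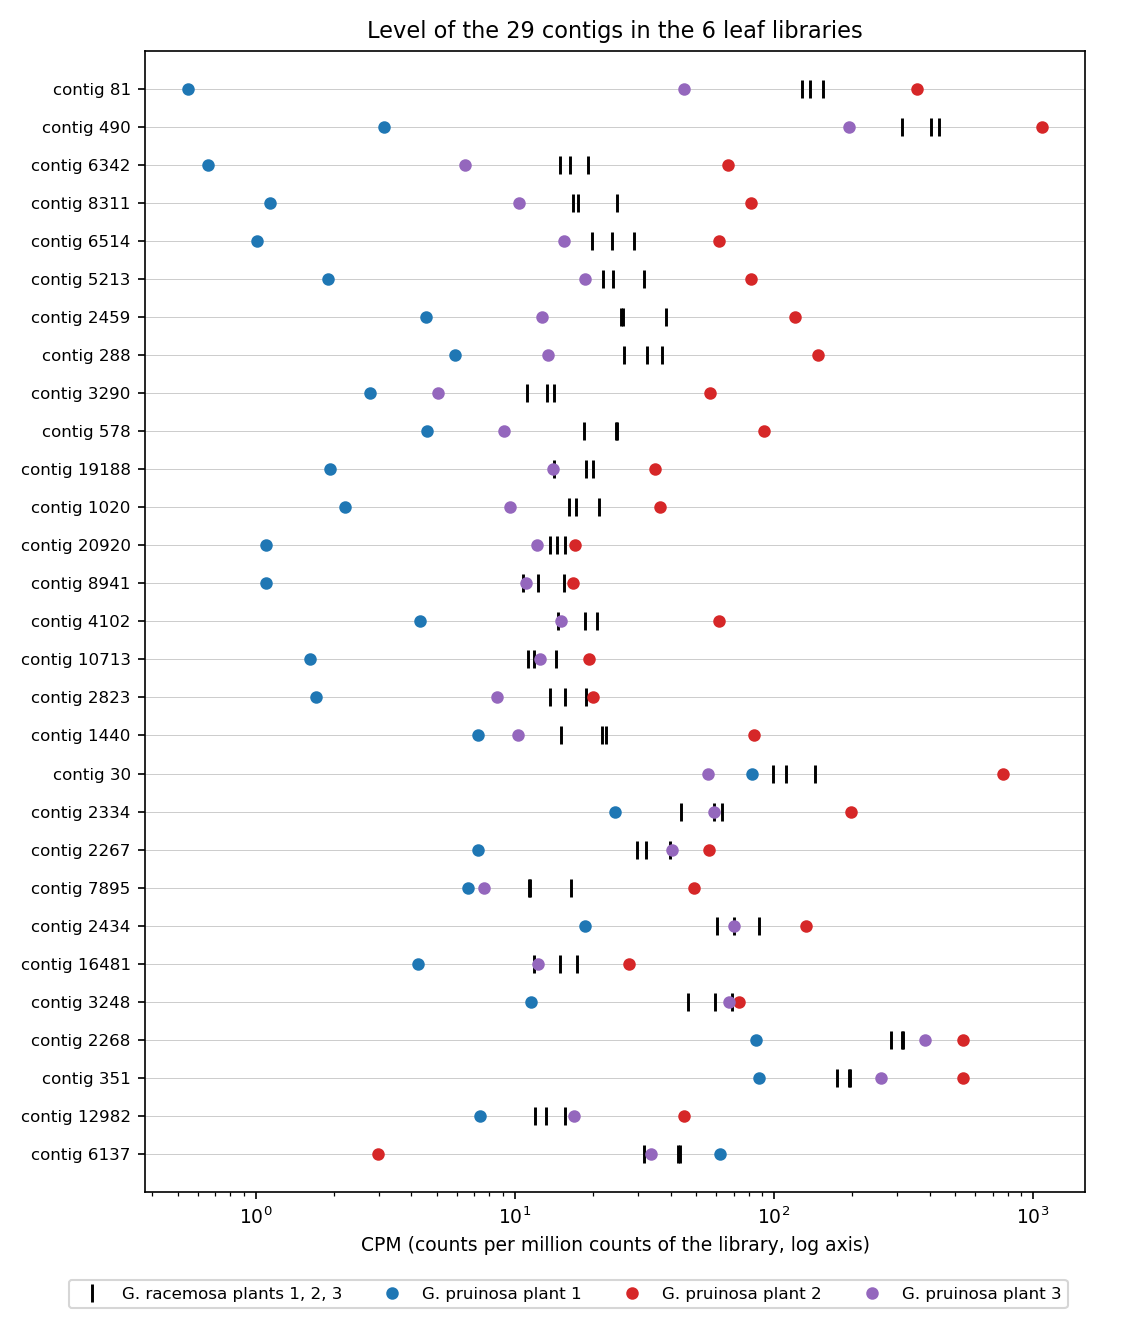
CPM on a log axis of each of the 29 contigs, ordered by the ratio of pruinosa plant 2 to plant 1. Black ticks are the 3 G. racemosa plants and coloured points the 3 G. pruinosa plants, 1 library each. The ticks stay within 1.5-fold of each other while plants 1 and 2 lie on either side of them, from 0.549 to 358 CPM in contig 81 at the top.

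The limits of the rule cut through a continuous range. Just inside the 6-fold limit were contig 12982 with a ratio of 6.16 and contig 351 with 6.18. Just outside it were contig 4335 with 5.96 and contig 928 with 5.62. Of the 14 contigs picked by the naming rule below, 351, 2268 and 12982 fell under 6-fold with both TMM-scaled totals and DESeq2 size factors. Contig 2434 did so with the latter only. The other 15 contigs of the 29 were not checked for this. Contig 1440 had a G. racemosa ratio of 1.49, just inside that limit, and contig 21999 one of 1.504, just outside. The latter had 79.5, 6.43 and 33.7 CPM in pruinosa plants 1, 2 and 3 and would have been the second contig higher in plant 1. The lowest G. racemosa value was 10.8 CPM in contig 8941, just inside the minimum, and 8.63 CPM in contig 287, just outside. Contigs with a G. racemosa mean between 10 and 30 CPM met the rule in 0.722% of cases (17 of 2355), those between 30 and 100 CPM in 0.289% (7 of 2418) and those between 100 and 1000 CPM in 0.549% (5 of 911).

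Pruinosa plant 3 did not enter the ratio, so its level could be placed among the other plants. It lay between plants 1 and 2 in 28 of the 29 contigs (96.6%), the exception being contig 30. Among the 1114 other contigs with at least 10 counts and a 6-fold difference in plants 1 and 2, it was 685 (61.5%). The rule placed plants 1 and 2 on either side of G. racemosa, so a plant 3 near the G. racemosa level lies between them by construction. Plant 3 was below the G. racemosa range in 17 of the 29 contigs (58.6%), inside it in 8 (27.6%) and above it in 4 (13.8%). Over all 5709 contigs steady in G. racemosa these shares were 43.3%, 34.2% and 22.6%. The 4 contigs with plant 3 above the range were 351, 2267, 2268 and 12982. Without racemosa plant 3, the number inside the range was 4.

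Where plant 3 was low, plants 1 and 2 tended to be far apart. Among the contigs higher in plant 2, the ratio of plant 2 to plant 1 had a median of 20.6 (7.47 to 652) in the 17 contigs with plant 3 below the G. racemosa range. It had a median of 8.16 (6.38 to 15.3) in the 7 contigs with plant 3 inside the range and of 6.23 (6.16 to 7.83) in the 4 with plant 3 above it. These are values of single libraries, and contigs are not replicates. On the log scale plant 3 was nearer to plant 1 in 12 of the 29 contigs (41.4%) and nearer to plant 2 in 17 (58.6%), against 31.6% and 68.4% of all steady contigs.

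The lower limit of plant 3 relative to racemosa plant 1 touches these values. The CPM of plant 3 was 0.327 to 1.33 times that of racemosa plant 1 in the 29 contigs, with a median of 0.713, against a median of 0.886 over all steady contigs. The lowest of these ratios was that of contig 81, close to the limit of 0.294. After 0.294 times the CPM of racemosa plant 1 was subtracted from plant 3 and the rest rescaled, contig 81 stood at 6.40 CPM in plant 3 in place of 45.1. Contig 490 then stood at 94.3 CPM in place of 194.6, and contig 6342 at 2.88 in place of 6.43. With this subtraction plant 3 was below the G. racemosa range in 21 contigs, inside it in 4 and above it in 4 (72.4%, 13.8% and 13.8%), against 51.5%, 23.8% and 24.7% of all steady contigs after the same subtraction. It was then nearer to plant 1 in 16 contigs (55.2%), against 33.7% of all steady contigs. Whether such a share of reads is present in the library was not tested.

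**Figure D3:**
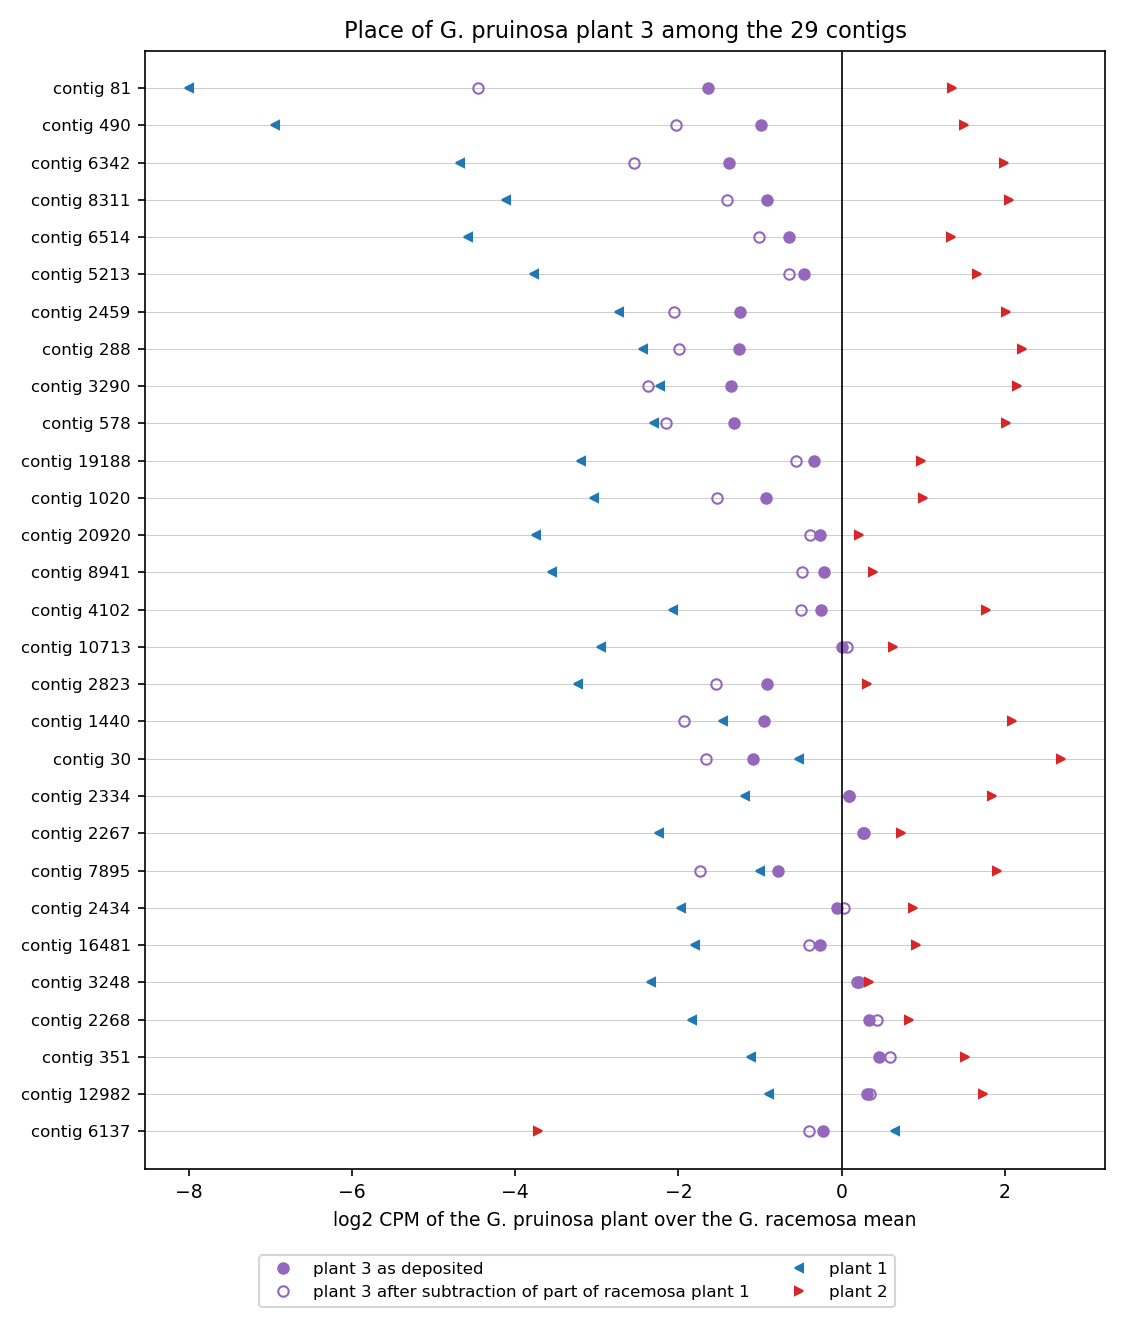
Log2 CPM over the G. racemosa mean (vertical line at 0) of pruinosa plants 1, 2 and 3 in the 29 contigs, in the same order as the plot of levels. Filled circles are plant 3 as deposited and open circles plant 3 after subtraction of part of racemosa plant 1. Filled circles lie left of the line in most of the upper rows. In most of the lower rows they lie near it, but those of contigs 30 and 7895 lie at -1.09 and -0.78. The open circle of contig 81 lies at -4.46.

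Contigs next to each other in the numbering were compared because an assembly can hold pieces or variants of a gene as separate contigs. Of the 58 contigs numbered directly before or after the 29, 56 had at least 10 counts in both plants, and 4 of these were at least 6-fold higher in plant 2. Leaving out the neighbours that are themselves among the 29, chosen for such a difference, it was 2 of 54 (3.70%), against 2.32% of all contigs counted this way. The 4, named after their values were seen, were 2267 and 2268, which are each other's neighbours and both among the 29, and contigs 287 and 1439. The CPM of contig 2268 was 11.9, 9.54 and 9.40 times that of contig 2267 in pruinosa plants 1, 2 and 3 and 7.89, 8.78 and 10.6 times in racemosa plants 1, 2 and 3. Over the 6 plants this proportion varied less than the level of either contig.

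Contig 287, next to contig 288, had 3.76, 38.8 and 4.97 CPM in pruinosa plants 1, 2 and 3 and 12.0, 8.63 and 12.6 CPM in the G. racemosa plants. Contig 288 stood at 1.57 to 4.31 times these levels. Contig 1439, next to contig 1440, had 2.24, 110 and 6.77 CPM in G. pruinosa and 10.7, 27.8 and 14.5 CPM in G. racemosa, where it was not steady. How reads that match several contigs were divided is not given in the sources used here, so the levels within each such pair are uncertain.

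None of the 29 contigs was called different between the species. In edgeR's quasi-likelihood test on all 6 libraries (adjusted by Benjamini-Hochberg, 3 plants of each species), 1.13% of contigs (492 of 43447) were called at an adjusted p under 0.05, and 0 of the 29, whose smallest adjusted p was 0.495. At an unadjusted p under 0.05 the test took 18.2% of all contigs and 0 of the 29. DESeq2 called 9.64% of the contigs it gave a p for and 0 of 27, and gave contigs 1440 and 3290 no p. The rule placed G. pruinosa plants on both sides of G. racemosa, so these counts follow from the choice of the contigs. The count over all contigs itself was 41 without pruinosa plant 2, 2121 without pruinosa plant 3, and 7, 0 and 2 without racemosa plants 1, 2 and 3.

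Fits that left out one of the plants behind the ratio gave no call either. Without plant 2 (2 against 3 plants), 8 of the 29 had an unadjusted edgeR p under 0.05 with lower levels in G. pruinosa, as had 4.12% of all contigs. The lowest adjusted p was 0.192, for contig 578, with a log2 fold change of -1.71. Without plant 1, in a fit in which 10.5% of all contigs were higher in G. pruinosa at that threshold, contigs 351 and 12982 had an unadjusted edgeR p under 0.05 with log2 fold changes of 0.93 and 1.03 (adjusted p of 0.252 and 0.292). Plant 1 chose the contigs in the first fit and plant 2 in the second, so these are descriptions.

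The same rule was then applied to the other pairs of plants. With G. racemosa steady, 27 contigs (0.473%) had pruinosa plants 1 and 3 at least 6-fold apart on either side of the range, all 27 higher in plant 3. For pruinosa plants 2 and 3 there were 22 (0.385%), of which 14 were higher in plant 2 and 8 in plant 3. These pairs share plants and the G. racemosa values, so the counts are not independent of the 29. In the opposite arrangement, 4297 contigs were steady in G. pruinosa. Of these, 2 (0.0465%) had racemosa plants 1 and 2 on either side and at least 6-fold apart, 0 had plants 1 and 3, and 1 (0.0233%) had plants 2 and 3. The limit of pruinosa plant 3 enters both arrangements. With pruinosa plant 3 left out, the G. racemosa pairs gave 7, 9 and 7 contigs, with plant 1 left out 16, 17 and 16, and with plant 2 left out 9, 6 and 6. The G. pruinosa pairs with a G. racemosa plant left out gave 51 to 64 contigs for plants 1 and 2, 55 to 90 for plants 1 and 3, and 40 to 55 for plants 2 and 3.

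The 3 contigs of the opposite arrangement show the pattern in G. racemosa. Contig 15163 had 5.75, 39.7 and 30.4 CPM in racemosa plants 1, 2 and 3 and 22.3, 21.5 and 21.0 CPM in the G. pruinosa plants. Contig 8541 had 102.7, 10.03 and 42.0 CPM in G. racemosa against 49.4, 41.1 and 60.8 CPM in G. pruinosa. Contig 3410 had 9.26, 0.647 and 17.6 CPM against 11.9, 10.7 and 12.9 CPM. The low level in these contigs was in racemosa plant 1 in the first and in racemosa plant 2 in the others.

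**Figure D4:**
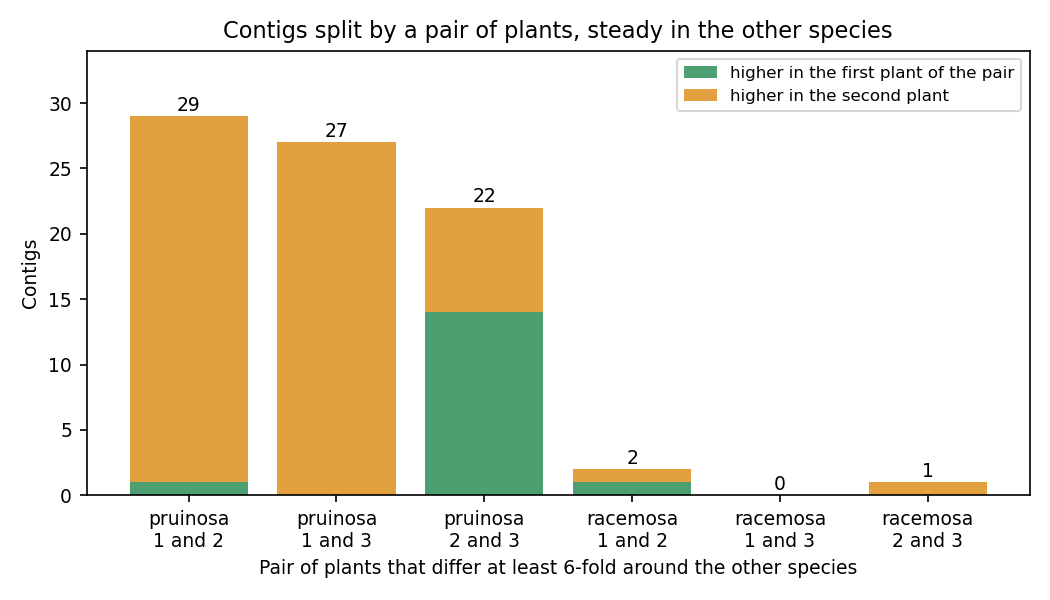
Number of contigs in which the 2 plants named under each bar differ at least 6-fold, on either side of the other species, while the 3 plants of that species are within 1.5-fold. Colours give the plant with the higher level. The G. pruinosa pairs have 29, 27 and 22 contigs and the G. racemosa pairs 2, 0 and 1.

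With plain totals, large departures of pruinosa plants 1 and 2 from a steady G. racemosa level were more often downward. Over the 5709 steady contigs, pruinosa plant 1 was at least 6-fold below the lowest G. racemosa plant in 114 (1.997%) and at least 6-fold above the highest in 4 (0.0701%). Plant 2 was below in 47 (0.823%) and above in 3 (0.0525%), and plant 3 below in 0 and above in 5 (0.0876%). Plant 3 could hardly be 6-fold below, given its limit. Large departures were also more often downward in the opposite arrangement, over the 4297 contigs steady in G. pruinosa. There, racemosa plants 1, 2 and 3 were at least 6-fold below the lowest G. pruinosa plant in 13, 25 and 13 contigs (0.303%, 0.582% and 0.303%). They were at least 6-fold above the highest in 0, 1 and 0 contigs. The minimum of 10 CPM held only for the species in which the contigs were steady. Contigs low there and high in a plant of the other species could not enter, whereas contigs low in that plant could. The excess of downward departures in both arrangements can thus follow in part from the choice of contigs, and how far it does was not tested. Reads of both species were counted on contigs of G. pruinosa, and which plant was assembled is not given in the sources used here. Pruinosa plant 2 had 2 contigs with 0 counts, whereas plant 1 had 3481 and plant 3 had 3134. These counts stand beside the higher levels of 28 of the 29 contigs in plant 2, and their part in the result was not tested.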

How the data were processed

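The authors deposited raw read counts per contig, 1 file per library, per the file headers; the values were whole numbers. Libraries were stranded and paired-end, and reads of both species were counted on contigs assembled de novo from 1 G. pruinosa plant, per the labels' protocols and the series' design text. Mapper, counter, use of strand and handling of shared reads: not given in the sources used here. No 2 libraries held the same values. CPM were computed here on plain totals. Species were compared with edgeR 4.0.16 in R 4.3.3 (TMM, filterByExpr, glmQLFTest, Benjamini-Hochberg, species as the only term), with DESeq2 1.42.0 on the same contigs as an alternative. The test was tested on simulated data. P-values set the difference between the species against the spread between the plants sampled of each species. Species, site and month changed together. Intervals (95%, exact binomial) cover counting error only, since the reads carry no molecular identifiers.

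The contigs, thresholds and groupings were chosen with earlier results of these data known. Named contigs follow a rule: in each direction the 5 largest ratios, then the 4 highest in G. racemosa, the 2 steadiest there, and those with pruinosa plant 3 highest and lowest, each among the contigs not yet taken, plus those at the 6-fold limit. This gave 14 of the 29. The other 15 were given for completeness. Alternatives were other scalings, limits, thinning to the smallest total, no filter on low counts, a replicate block, and leaving out each library.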

Additional observations from a re-analysis of the deposited data

How the results depend on the processing

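The 29 contigs (1 higher in pruinosa plant 1, 28 in plant 2) became 17 (2 and 15) with TMM-scaled CPM and 15 (2 and 13) with DESeq2 size factors. A G. racemosa ratio of at most 1.3 gave 7 (0 and 7), one of at most 2 gave 48 (2 and 46), a 4-fold limit gave 47 (3 and 44) and a minimum of 20 CPM gave 13 (12 higher in plant 2). Leaving out 1 G. racemosa plant gave 51 to 64 (5 higher in plant 1 each time, 46 to 59 in plant 2), and without pruinosa plant 3 the number was 29. Thinning gave 26, with 23 of the 29 among them. Plant 3 lay inside the G. racemosa range in 8 contigs, in 4 after the subtraction, and in 4 to 6 without 1 G. racemosa plant. The rule cannot be applied without pruinosa plant 1 or 2. No contig of the 29 was called between the species in any of the 11 fits. The count over all contigs, 492, was 4156 with DESeq2 and 16 with a replicate block (the number in the titles as a term), and 0 to 2121 without 1 library; the cause was not tested. Nothing in the labels pairs the plants by number, and the deviations of same-numbered plants correlated at -0.26, 0.02 and -0.20. Those of differently numbered plants ran from -0.13 (pruinosa plant 3 with racemosa plant 2) to 0.31 (pruinosa plant 3 with racemosa plant 1). These correlations share plants and are not independent, so they do not decide whether the plants were paired. The block changed no call among the 29.

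The other pairs were tried under settings chosen after seeing the data. Pruinosa plants 1 and 3 gave 27, 73 at 4-fold and 27 to 90 without 1 library. Pruinosa plants 2 and 3 gave 22, 35 at 4-fold and 22 to 55 without 1 library. Racemosa plants 1 and 2 gave 2, 1 with DESeq2 size factors, 1 after thinning and 2 to 16 without 1 library. Racemosa plants 1 and 3 gave 0, 1 at 4-fold and 0 to 17 without 1 library. Racemosa plants 2 and 3 gave 1, 0 with TMM-scaled CPM, 0 with DESeq2 size factors, 4 at 4-fold and 1 to 16 without 1 library. The log2 ratio of pruinosa plant 1 to 2 of the 14 named contigs moved beyond its counting interval in 18 of 42 comparisons with other scalings and thinning. The largest shift over all 42 comparisons, within the interval or beyond it, was 0.54. Of the 14, 3 fell under 6-fold with TMM-scaled CPM, 4 with DESeq2 size factors and 1 after thinning. A ratio of at least 6 could not change sign under shifts of this size. Depth limited racemosa plant 1 most, where 10 CPM are 237 counts.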
